A study of Mus musculus with 4 samples.

Results

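The MHC class II genes examined here are 8 genes of antigen presentation, H2-Aa, H2-Ab1, H2-Eb1, H2-DMa, H2-DMb1, H2-Oa, Cd74 and Ciita, measured in mouse peritoneal macrophages with or without the H3K9 methyltransferase Setdb1. Values of a gene were taken from every probe set, a group of short probes for 1 transcript, whose single symbol in the platform annotation is one of these names. By this rule 7 of the 8 genes have 15 probe sets among 18193 genes on the array. H2-DMb1 has none, since 2 probe sets carry its symbol together with that of H2-DMb2, and these were given to neither gene.

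The macrophages came from LysM Cre/+:Setdb1 fl/fl mice, called KO, and from +/+:Setdb1 fl/fl mice, called WT, all labelled as strain C57BL6/J. Mice of both groups carry the floxed allele, and the groups differ in Cre, which the LysM promoter drives in macrophages and also in neutrophils. Cells drawn into the peritoneal cavity by thioglycollate were cultured, those that attached were used as macrophages, and they then received vehicle or lipid A, the part of LPS that TLR4 senses, for 4 h. The dose of lipid A is 10 µg/ml in the sample labels and 10 ng/ml in the text on the whole series. For each of the 4 conditions RNA was hybridized to 1 Affymetrix mouse array, so no difference below has a replicate check, and neither a test nor a spread between mice can be given. Age, sex and the number of mice per array are not given in the sources used here.

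MHC class II molecules carry peptides of ingested proteins to the cell surface, where CD4+ T cells read them. The α and β chains pair in the endoplasmic reticulum with the invariant chain, lysosomal proteases trim that chain to a fragment in the peptide groove, and the DM molecule exchanges the fragment for peptide. Dendritic cells, B cells and thymic epithelium hold class II at rest, whereas macrophages hold more of it after interferon-γ, which switches on Ciita. The Ciita protein binds no DNA itself but joins a set of factors on a shared promoter module, where RFX binds the X1 box, CREB the X2 box and NF-Y the Y box.

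That module could be read in the promoter windows of RefSeq, which run from 250 bases before to 50 bases after a transcript start and cover 5 of the 8 genes, H2-DMa with 2 windows. H2-Ab1, Cd74 and Ciita have no entry. The stretches below are the part of 4 windows that holds both ends of the module, 5′ to 3′ along the gene, on build GRCm38.p6. Capitals mark the letters GNAAC, the end of the X1 box, and ATTGG, the core of the Y box. They are shown because the same letters stand at nearly the same spacing in 4 genes on which Ciita is known to act.
H2-Aa, chr17:34287855-34287916, minus strand: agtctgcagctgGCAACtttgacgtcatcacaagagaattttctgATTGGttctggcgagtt
H2-Eb1, chr17:34305764-34305824, plus strand: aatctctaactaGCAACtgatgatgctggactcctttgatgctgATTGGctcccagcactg
H2-DMb1, chr17:34153085-34153146, plus strand: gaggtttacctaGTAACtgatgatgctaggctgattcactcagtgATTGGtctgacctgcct
H2-Oa, chr17:34092291-34092352, plus strand: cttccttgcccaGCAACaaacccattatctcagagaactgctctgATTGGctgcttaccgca

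GNAAC and ATTGG start 33 bases apart in H2-Aa, H2-DMb1 and H2-Oa and 32 bases apart in H2-Eb1. The Y box core starts 48 bases before the transcript start in H2-Aa, 59 in H2-Eb1, 61 in H2-DMb1 and 43 in H2-Oa. A pair with ATTGG 30 to 40 bases after GNAAC on the same strand was found in 598 of 32851 windows, or 1.82%, and in neither window of H2-DMa. The other motifs were searched on both strands. The longer Y box letters CTGATTGG, which contain ATTGG, were in 4.10% of all windows and in those of H2-Aa, H2-Eb1 and H2-Oa, while ATTGG alone was in 37.4%. CCTAGNNAC, the longer X1 box letters that overlap GNAAC, was in 3.91% of windows and among these genes in H2-DMb1. TGACGTCA, the palindrome bound by CREB, was in 1.79% and in H2-Aa, where it lies between the marked ends. GNAAC by itself was in 84.8% of windows. GNAAC, TGACGTCA and the pair rule were chosen after these sequences had been read, and a match of letters describes a sequence and does not show that a factor binds.

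**Figure D1:**
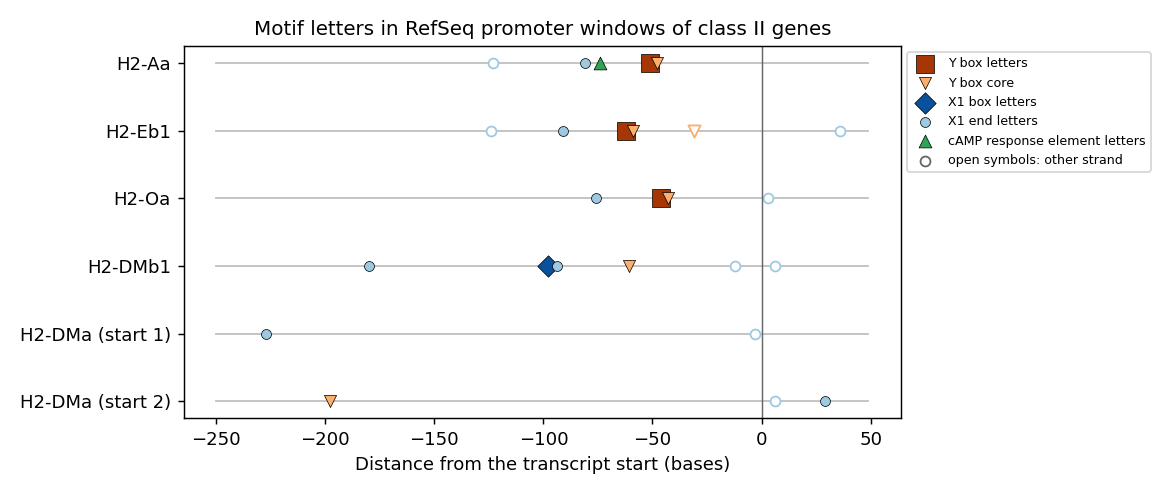
Each line is a RefSeq promoter window from 250 bases before to 50 bases after the transcript start of a class II gene, the horizontal axis is the distance from the start in bases, and symbols mark the first base of each motif, filled on the strand of the gene and open on the other strand. In H2-Aa, H2-Eb1, H2-Oa and H2-DMb1 an X1 end lies 76 to 94 bases and a Y box core 43 to 61 bases before the start, and H2-DMa has no such pair.

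Below, where a pair of signals is given for a genotype, vehicle comes first and lipid A second. Signals are linear and in arbitrary units, with an equal trimmed mean of 500.004 on each array. The median over 45037 probe sets was 65.1 and 74.8 on the WT arrays with vehicle and with lipid A, and 84.2 and 75.8 on the KO arrays. These medians differ by 0.37 on the log2 scale between KO and WT under vehicle, and centring each array on its median would lower every KO over WT difference there by that amount. Detection of a gene required that the brighter of both arrays reach its own median, and the probe set brightest on average over the 4 arrays, in log2 signal, represented its gene. Where the lower signal was below its array's median the fold is given as a bound against that median. The only measure of error is how far probe sets that share a gene scatter in their log2 difference, an SD from 0.39 to 0.46 over the 4 comparisons or 1.31-fold to 1.38-fold, which covers probes and not mice. Setdb1 itself gave 589 with vehicle and 521 with lipid A in WT, and 346 and 386 in KO, from a probe set whose place relative to the deleted part is not known here, so it does not check the genotype.

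Among class II genes at or above the median of all 4 arrays, KO and WT were compared by representative probe set. The largest differences were then in the invariant chain and DM, and the smallest in the chains of the I-A molecule. Under lipid A this order depended on the probe set, since a further one of H2-Aa (1438858_x_at) was at 1.32 on the log2 scale. With the median over probe sets H2-Aa was at 0.74 there, Cd74 at 0.66 and H2-DMa at 0.05. Under vehicle the log2 difference of KO over WT was 0.91 for Cd74, 0.86 for H2-DMa by its brighter probe set and 0.59 for H2-Eb1, against 0.07 for H2-Aa and 0.04 for H2-Ab1. All 7 genes were above 0 there, as were 58.1% of all detected genes. However, H2-Aa, H2-Ab1 and Ciita were below 0 when each array was centred on its median, and Ciita also after quantile normalization. Under lipid A 6 of 7 were above 0 under all 3 scalings, the exception being H2-Ab1. Of all detected genes, 49.2% were above 0 there in signals as deposited. The median difference of the 7 genes was 0.59 under vehicle and 0.66 under lipid A, beside 0.10 over 12002 and -0.01 over 12335 detected genes. For lipid A over vehicle the median of the 7 genes was -0.04 in WT and 0.02 in KO, beside -0.08 over 12129 and -0.20 over 12293 detected genes. In such bulk samples, fewer cells of a type and less RNA per cell cannot be told apart.

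H2-Aa encodes the α chain of I-A, the main class II molecule of this strain. Its representative probe set (1435290_x_at) gave 4753 with vehicle and 3938 with lipid A in WT, and 4988 and 5066 in KO. The lowest array was WT lipid A, and the other 3 lay within the spread between probe sets. The signal was 1.21-fold lower with lipid A in WT and 1.02-fold higher in KO, and KO was 1.05-fold higher than WT under vehicle and 1.29-fold higher under lipid A. All 4 of these differences were smaller than the SD between probe sets.

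The other 3 probe sets of H2-Aa differed among themselves. A further probe set (1438858_x_at) gave 2803 with vehicle and 2074 with lipid A in WT, and 3427 and 5163 in KO, and was 2.49-fold higher in KO than in WT under lipid A. A probe set of suffix s (1452431_s_at) stayed between 1088 and 1235 on all arrays. The dimmest (1443783_x_at) gave 436 and 221 in WT and 298 and 216 in KO, and was 1.46-fold lower in KO under vehicle. The log2 difference of KO over WT therefore ran from -0.55 to 0.29 under vehicle and from -0.03 to 1.32 under lipid A, depending on the probe set. With lipid A in WT, 4 of 4 probe sets were lower, by 0.02 to 0.98 on the log2 scale. Suffixes x and s mark probes that can also match other transcripts, so the differences between these probe sets cannot be assigned to H2-Aa alone.

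H2-Ab1 encodes the β chain that pairs with the product of H2-Aa. The representative probe set (1450648_s_at) gave 1576 with vehicle and 1101 with lipid A in WT, and 1620.2 and 1095 in KO. Both lipid A arrays were low and both vehicle arrays were high, by 1.43-fold in WT and 1.48-fold in KO, while KO and WT differed by 1.03-fold under vehicle and 1.01-fold under lipid A. The second probe set (1451721_a_at) gave 689 and 699 in WT and 699 and 895 in KO, and the third (1425477_x_at) gave 242 and 369 in WT and 264 and 484 in KO. Those probe sets were not lower with lipid A in either genotype, and the third was 1.52-fold higher in WT and 1.83-fold higher in KO. The direction of the lipid A difference of H2-Ab1 thus depended on the probe set, whereas 3 of 3 probe sets kept KO over WT under vehicle between 0.02 and 0.12 on the log2 scale.

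H2-Eb1 encodes the β chain of I-E. Mice of the b haplotype, to which C57BL/6 belongs, express no I-E at the surface because the promoter of the α chain gene is deleted, while the β chain gene is intact. Its probe set gave 1089 with vehicle and 1133 with lipid A in WT, and 1637 and 1577 in KO. Both KO arrays were above both WT arrays. KO was 1.504-fold higher under vehicle and 1.39-fold higher under lipid A, whereas lipid A and vehicle differed by 1.04-fold in each genotype, lipid A being the higher in WT and the lower in KO. Among detected genes, 19.9% had a larger KO over WT difference under vehicle and 21.2% under lipid A.

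**Figure D2:**
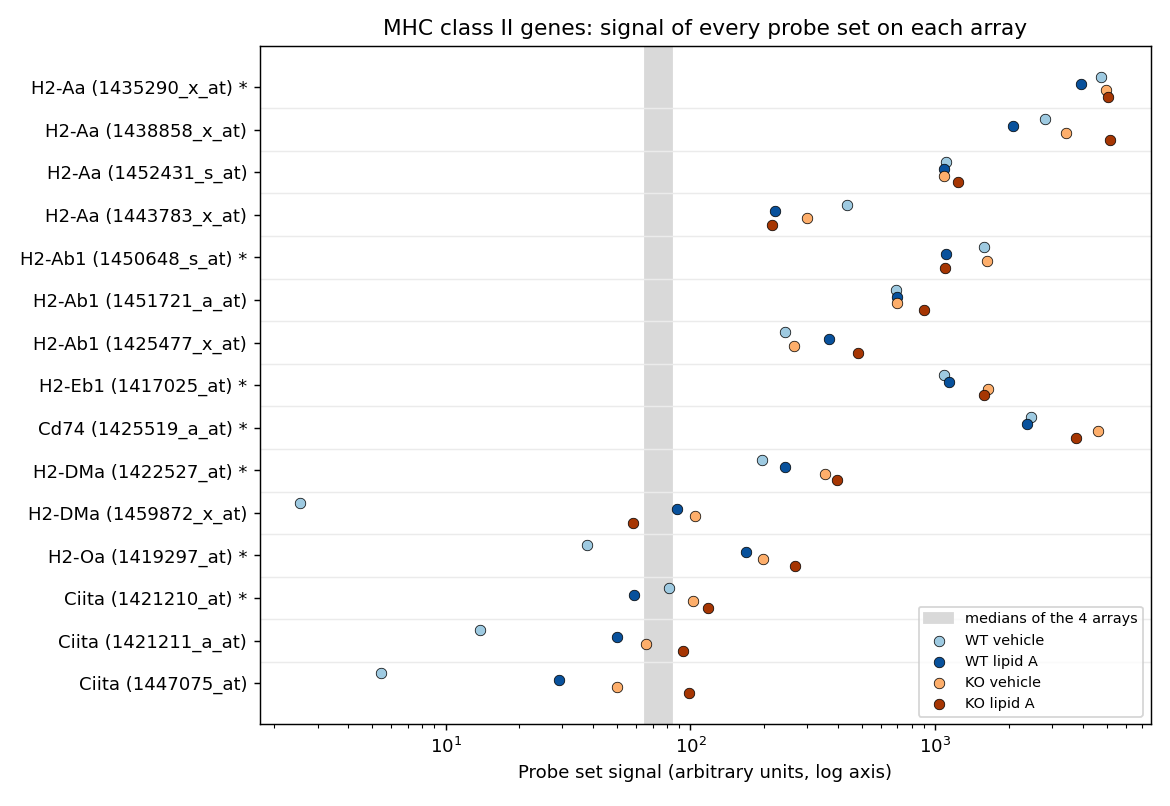
Signal of every class II probe set, in arbitrary units on a log axis, on the 4 arrays, with 1 point per array, the grey band spanning the 4 array medians and a star marking the probe set that represents the gene. Both KO arrays lie to the right of both WT arrays for H2-Eb1, Cd74 and H2-Oa and for the representative probe sets of H2-DMa and Ciita, and the WT vehicle array is the lowest in H2-Oa and in the second probe set of H2-DMa.

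Cd74 encodes the invariant chain, which fills the groove of new class II molecules and sorts them to lysosomes. Its probe set (1425519_a_at) gave 2451 with vehicle and 2376 with lipid A in WT, and 4616 and 3765 in KO. Both KO arrays were well above both WT arrays, and the lipid A array was the lower of the pair in each genotype. KO was 1.88-fold higher under vehicle and 1.58-fold higher under lipid A, or 2.18 and 1.61 times the SD between probe sets on the log2 scale. With lipid A the signal was 1.03-fold lower in WT and 1.23-fold lower in KO, both within that SD. Of the detected genes, 12.4% differed upward by more than Cd74 under vehicle and 16.0% under lipid A.

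H2-DMa encodes the α chain of DM, which takes the invariant chain fragment out of the groove. The representative probe set (1422527_at) gave 196 with vehicle and 243 with lipid A in WT, and 355 and 395 in KO. Both KO arrays were again above both WT arrays, by 1.81-fold under vehicle and 1.63-fold under lipid A, and lipid A was 1.24-fold and 1.11-fold higher than vehicle in WT and KO. The other probe set (1459872_x_at) was near background, with 2.55 under vehicle and 88.3 under lipid A in WT, and 104 and 58.1 in KO, and under lipid A it was at least 1.17-fold lower in KO. With the median over both probe sets the log2 difference of KO over WT was 3.11 under vehicle and 0.05 under lipid A, in place of 0.86 and 0.70.

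H2-Oa encodes the α chain of DO, a brake on DM that is known from B cells and thymic epithelium. Its only probe set gave 37.9 with vehicle and 169 with lipid A in WT, and 198 and 267 in KO. WT vehicle was the one array below its median, and the other 3 were above theirs. Lipid A was at least 2.60-fold higher than vehicle in WT and 1.35-fold higher in KO, and KO was at least 3.04-fold higher than WT under vehicle and 1.58-fold higher under lipid A. The large values all rest on the same low signal of WT vehicle.

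Ciita encodes the class II transactivator, whose level is held to set that of the other genes. The representative probe set (1421210_at) gave 81.6 with vehicle and 58.6 with lipid A in WT, and 102 and 118 in KO. KO was 1.25-fold higher under vehicle and at least 1.58-fold higher under lipid A, and lipid A was at least 1.09-fold lower in WT and 1.16-fold higher in KO. The second probe set (1421211_a_at) gave 13.9 and 49.9 in WT and 65.6 and 92.9 in KO, and the third (1447075_at) gave 5.47 and 29.1 in WT and 50.3 and 98.7 in KO. In all 3 probe sets the KO lipid A array was the highest as deposited, and no fold is given for the second and the third, whose WT signals were below the array median. All these signals lay near the array medians or below, where a fold carries little information, and the sign of the representative probe set under vehicle turned with the scaling as given above.

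Counted by fold, 1 of the 7 genes, H2-Oa, was past 2-fold upward in WT treated with lipid A, as were 11.8% of all detected genes, and 0 were past 2-fold downward, as were 8.94%. In KO 0 of 7 passed 2-fold in either direction, against 11.2% of all detected genes upward and 16.0% downward. Between genotypes 1 of 7, again H2-Oa, was over 3-fold higher in KO under vehicle, where 6.28% of detected genes were, and 0 were lower, where 3.65% were. Under lipid A 0 of 7 passed 3-fold, with 6.35% of detected genes higher and 5.73% lower. In a set of 7, counts of 0 or 1 do not stand apart from these shares. These counts take signals as deposited, so a gene can pass on a low signal while its bound does not.

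**Figure D3:**
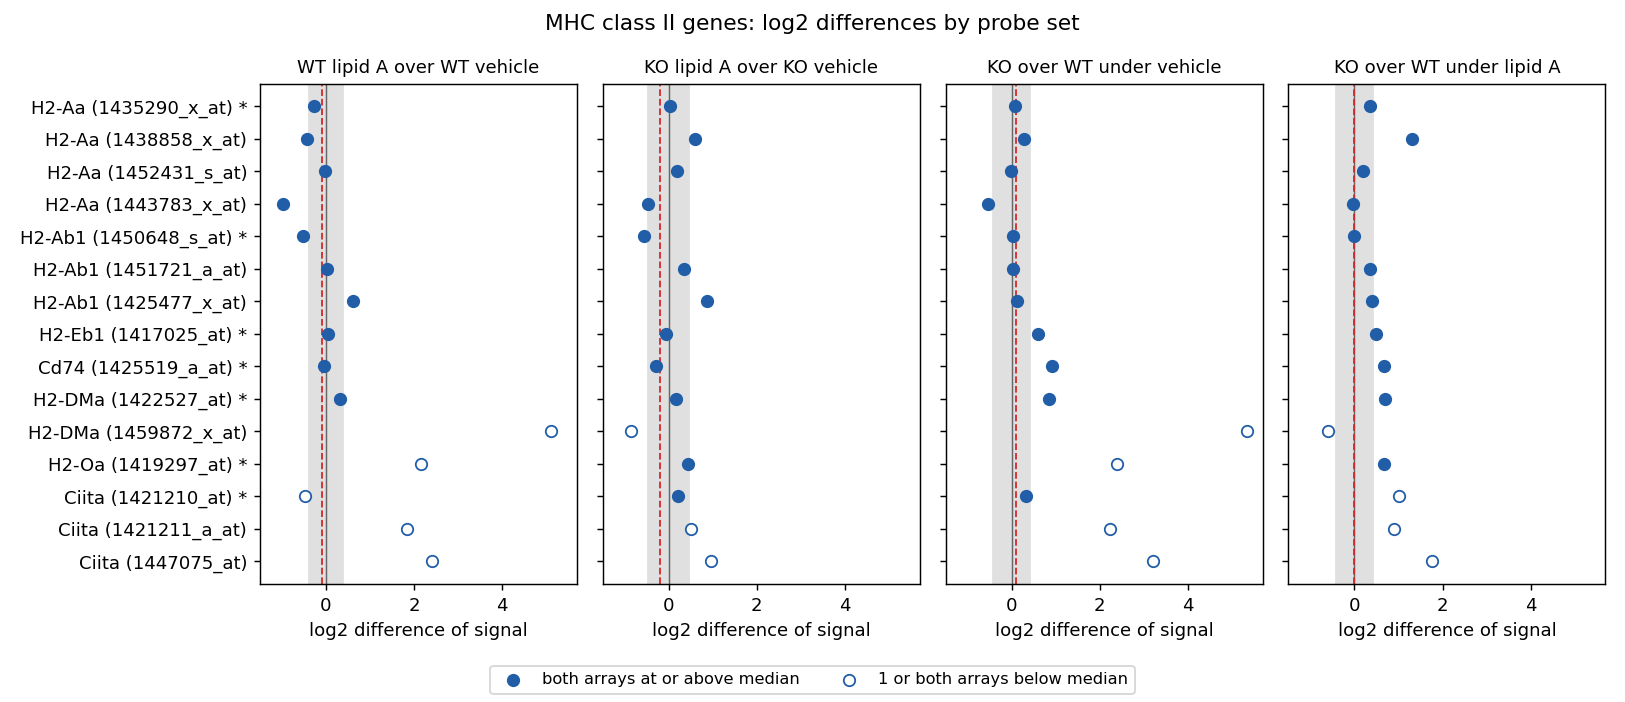
Log2 difference of signal for every class II probe set in the 4 comparisons, with the SD between probe sets of a gene as a grey band around 0, the median of all detected genes as a dashed red line, a star at the representative probe set, and open circles where 1 or both arrays are below their median. Cd74, H2-DMa (1422527_at) and H2-Eb1 lie to the right of the grey band in both KO over WT panels, H2-Ab1 (1450648_s_at) stays at 0 there, and the values above 2 are open circles.

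Ordered by the KO over WT difference under vehicle on the log2 scale, H2-Oa came first at 1.61 or more, a bound against the median of WT vehicle, then Cd74, H2-DMa, H2-Eb1, Ciita at 0.32, H2-Aa and H2-Ab1. Under lipid A the order was H2-DMa at 0.70, Cd74 and H2-Oa at 0.66 each, H2-Eb1 at 0.48, H2-Aa at 0.36 and H2-Ab1 at -0.01. Ciita was at 0.66 or more there, a bound that leaves its place at the top of this order unsettled. Neighbours in both orders were closer than the SD between probe sets, apart from H2-Oa and Cd74 under vehicle. All genes of a comparison were read from the same pair of arrays.

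By representative probe set, detected class II chain genes outside the 8 were also higher in KO. H2-DMb2 encodes a further β chain of DM, and its probes may also match its near copy H2-DMb1. It gave 120 with vehicle and 86.2 with lipid A in WT, and 497 and 442 in KO. H2-DMb2 was 4.15-fold higher in KO under vehicle and 5.13-fold higher under lipid A, and its second probe set (1443686_at) was 5.20-fold and 4.16-fold higher. The third (1419744_at), below the array median in WT, was at least 2.02-fold and at least 3.36-fold higher. H2-Ob, the β chain of DO, gave 58.5 and 22.6 in WT and 202 and 128 in KO, with both WT arrays below their median, and was at least 3.11-fold and at least 1.72-fold higher in KO. H2-Ea encodes the α chain of I-E, and its promoter is deleted in the b haplotype, as given above. It gave 19.8 and 22.3 in WT and 55.4 and 154 in KO, so that the KO lipid A array alone reached its median. KO was at least 2.06-fold higher there. The other probe sets of H2-Ea were not above the median in KO, and with lipid A 1 of them gave 108 in WT and 70.7 in KO. H2-Eb2 lay below the array median in 3 of 4 arrays, with 73.9 in WT vehicle and 78.6 in KO vehicle. Of the detected genes of this list, 2 of 2 were over 3-fold higher in KO under vehicle and 3 of 3 under lipid A. The shares over all detected genes were 6.28% and 6.35%, as given above. The medians of this list, 1.92 and 2.51, take signals as deposited and are not bounds. That under lipid A is the value of H2-Ob, whose bound there was 1.72-fold. H2-Ob and H2-Ea were detected only through KO arrays, so the filter admits them only where KO is the higher. By their bounds under lipid A they do not pass 3-fold. H2-DMb2 alone passes by a measured fold under both treatments, in its representative and second probe sets.

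The factors that occupy the promoter module were all detected, namely Rfx5, Rfxap and Rfxank of the RFX complex, the NF-Y subunits Nfya, Nfyb and Nfyc, and Creb1. Their median KO over WT differences were 0.30 under vehicle and 0.17 under lipid A, beside 0.10 and -0.01 over all detected genes. Of these 7 genes 0 passed 3-fold either way, a count that does not stand apart from 6.28% higher and 3.65% lower under vehicle and 6.35% and 5.73% under lipid A over all detected genes. Rfx5, the DNA-binding subunit of RFX, gave 163 with vehicle and 408 with lipid A in WT, and 199.8 and 251 in KO. It was 2.51-fold higher with lipid A in WT, the only member of the list past 2-fold, and 1.26-fold higher in KO. A count of 1 in 7 does not stand apart from the 11.8% of all detected genes past 2-fold upward in lipid A-treated WT. Rfxap was lower with lipid A by 1.96-fold in WT and 1.66-fold in KO. Rfxank gave 137 and 133 in WT and 199 and 177 in KO, so that both KO arrays were above both WT arrays.

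On the path from interferon-γ to Ciita, 2 of 7 detected genes were over 2-fold higher with lipid A in each genotype. The shares over all detected genes were 11.8% in WT and 11.2% in KO. Ifng itself stayed below the array median on all 4 arrays, at 4.57 to 25.8. Irf1, a transcription factor that acts on a Ciita promoter, was 11.4-fold above vehicle in WT cells given lipid A and 13.0-fold above it in KO cells, and Jak2, a kinase of the receptor, was 4.29-fold and 8.86-fold above it. Ifngr2, a receptor chain, gave 5401 with vehicle and 3722 with lipid A in WT, and 1914 and 2344 in KO, which is 2.82-fold lower in KO under vehicle and 1.59-fold lower under lipid A. Of 7 detected genes on this list, 0 passed 3-fold between genotypes, with medians of -0.21 under vehicle and -0.12 under lipid A. That count again does not stand apart from the shares of all detected genes. These were 6.28% higher and 3.65% lower under vehicle, and 6.35% and 5.73% under lipid A.

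Genes that prepare peptide and trim the invariant chain were detected on all 4 arrays. All 10 on the list reached the median of each array, and 0 passed the fold of any of the 4 comparisons, where 3.65% to 16.0% of all detected genes passed it per comparison and direction, so that with 10 genes the genotype counts do not stand apart from the background. Ctss, the protease cathepsin S that makes the last cuts in the invariant chain, lay between 88119 and 97849 on the 4 arrays. Sppl2a, which clears the remaining invariant chain fragment from the membrane, gave 5461 with vehicle and 6584 with lipid A in WT, and 3651 and 5404 in KO. It had the largest difference of the list under vehicle, 1.496-fold lower in KO, and Ctsl the largest under lipid A, 1.38-fold lower in KO.

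Among genes of class II turnover, Cd83, whose product keeps class II at the surface by opposing the ubiquitin ligase of Marchf1, gave 1238 with vehicle and 4027 with lipid A in WT, and 1970.1 and 15195 in KO. The KO lipid A array was far above the other 3. Cd83 was 3.25-fold higher with lipid A in WT, 7.71-fold higher in KO, and 3.77-fold higher in KO than in WT under lipid A. Marchf1 gave 284, 280 and 301 in WT vehicle, WT lipid A and KO vehicle and 158 in KO lipid A, so that this array was the lowest. Marchf8, a related ligase, was lower with lipid A by 2.11-fold in WT and 1.74-fold in KO. Cd83 under lipid A was the only 1 of 7 detected genes of this list past 3-fold between genotypes. That count does not stand apart from 6.35% of all detected genes higher and 5.73% lower there. Under vehicle 0 of 7 passed, with 6.28% of all detected genes higher and 3.65% lower. The medians of this list were 0.09 under vehicle and -0.37 under lipid A.

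Marker genes of other cells that hold class II also differed between KO and WT. B cells have class II, the invariant chain, DM and DO at rest. Of 15 B cell markers with a probe set, 11 of 14 detected were over 3-fold higher in KO under vehicle and 1 was lower. Under lipid A 10 of 13 were higher and 0 lower. Over all detected genes the shares were 6.28% and 3.65% under vehicle, and 6.35% and 5.73% under lipid A. The marker medians, from signals as deposited, were 2.59 and 3.27. Several markers were detected only through the KO array. By their bounds Cd79a (1.64-fold), Ebf1 (1.86-fold) and the lower Fcer2a (1.24-fold) do not pass 3-fold under vehicle. Nor do Cd79a (2.49-fold) and Fcer2a (1.86-fold) under lipid A. The summed signal of the B cell markers was 3097 with vehicle and 2775 with lipid A in WT, and 10122 and 9778 in KO. At or above the array median were 8 and 6 of the 15 in WT, and 13 on each KO array.

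Of the defining markers, Ms4a1, which encodes CD20, gave 143 with vehicle and 130.3 with lipid A in WT, and 2399 and 2931 in KO. Cd79b, a signaling chain of the B cell receptor, gave 97.4 and 41.7 in WT and 976 and 654 in KO, and Cd79a, its partner chain, gave 30.3 and 53.5 in WT and 107 and 187 in KO. In WT, Cd79a was below the array median on both arrays and Cd79b with lipid A, while Ms4a1 was above it, and in KO all 3 were above it. Cd22 went against the rest, at 1949 and 1880.4 in WT and 1618 and 1012 in KO. The summed signal of the 7 class II genes was 10184 and 9018 in WT and 13516 and 12283 in KO, and the part of B cell RNA in the class II differences was not tested.

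Dendritic cells hold class II as well. Of 8 of their markers detected under vehicle 2 were over 3-fold higher in KO and 0 lower, beside 6.28% and 3.65% of all detected genes. Of 7 under lipid A 2 were higher and 1 was lower, beside 6.35% and 5.73%. The medians of these markers were 0.70 and 0.36. By their bounds Cd209a (2.21-fold higher) and Zbtb46 (2.27-fold lower) do not pass 3-fold under lipid A. The summed signal of the dendritic cell markers was 4785 and 5749 in WT and 6518 and 6024 in KO. Flt3, the cytokine receptor of dendritic cells, was below the array median on all 4 arrays. Zbtb46, a transcription factor of classical dendritic cells, gave 98.9 and 172 in WT and 152 and 41.3 in KO, so that it was lowest in KO lipid A. Clec10a, a lectin also found on macrophages, gave 121 and 72.5 in WT and 1075 and 445 in KO.

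The resident macrophages of the peritoneum come in a small class, rich in class II, and a large class with little of it. Of the markers of the small class 1 of 3 detected was over 3-fold higher in KO under vehicle and 2 of 3 under lipid A, beside 6.28% and 6.35% of all detected genes. Irf4, a factor of the small class that B cells express too, gave 24.2 with vehicle and 9.48 with lipid A in WT, and 199.96 and 215 in KO. Both WT signals of Irf4 were below the array median, as were those of Ccr2, another of these markers, so both genes were detected only through KO. The bounds of Irf4 were 3.07-fold under vehicle and 2.87-fold under lipid A, the latter short of 3-fold. Of the markers of the large class 5 of 7 were over 3-fold higher under each treatment, beside the same shares of all detected genes. Gata6 was among them at 114 and 26.9 in WT and 406 and 231 in KO. The medians of this list, from signals as deposited, were 1.83 and 1.92. Selp under both treatments and Gata6 under lipid A were detected only through KO. Their bounds still pass 3-fold, at 7.80-fold and 3.44-fold for Selp and 3.09-fold for Gata6. General macrophage markers had 0 of 9 detected genes past 3-fold either way. That count does not stand apart from 6.28% higher and 3.65% lower under vehicle, and 6.35% and 5.73% under lipid A. The medians of these markers were -0.19 and -0.33, and their summed signal ran from 161714 in KO vehicle to 209506 in WT lipid A. Adgre1, which encodes F4/80, was 2.73-fold lower in KO under vehicle and 1.39-fold lower under lipid A. The part of these cells in the class II differences was not tested either.

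**Figure D4:**
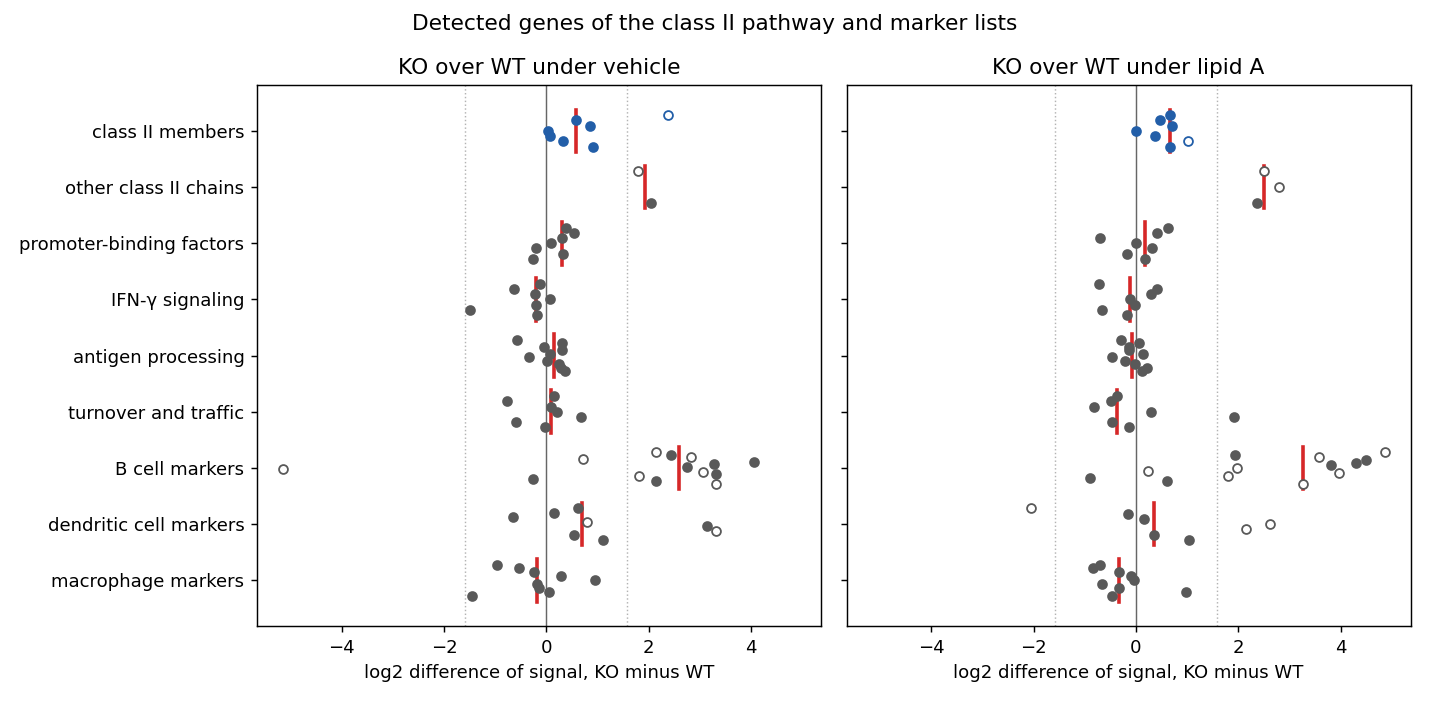
Log2 difference of signal of KO minus WT for each detected gene of the class II genes and of the pathway and marker lists, under vehicle and under lipid A, with open circles where the fold is a bound or cannot be given, red bars at each list's median, and dotted lines at 3-fold. The class II genes center on 0.59 and 0.66, the promoter-binding, interferon and processing genes stay within 3-fold, and the B cell markers center on 2.59 and 3.27.

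The shape of the class II profile over the 4 arrays was not particular to class II. H2-Aa, H2-Ab1, H2-Eb1, H2-DMa and Cd74 were at or above the median on all 4 arrays, and their mean log2 signal, centred on its own mean, was -0.19 and -0.28 in WT with vehicle and with lipid A, and 0.31 and 0.16 in KO. Of 9042 other genes above the median on all arrays, the 8 nearest to this profile by root mean square distance were Antxr1, Rfxank, Tsnax, Chtf8, Prmt2, Fbl, Cog2 and Atg16l1, at 0.021 to 0.037 on the log2 scale. Rfxank, a subunit of RFX, was the second nearest. The 5 genes themselves were farther from their own mean profile. H2-Eb1 lay at 0.071 with 73 other genes nearer, H2-Aa at 0.15 with 660 nearer, Cd74 at 0.17 with 895 nearer, H2-DMa at 0.24 with 2137 nearer and H2-Ab1 at 0.31 with 3699 nearer. With 4 arrays a profile has few degrees of freedom, and nearness is a description of these arrays.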

How the data were processed

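The authors hybridized biotin-labelled RNA to Affymetrix arrays and deposited 1 table of probe set values for 4 arrays. Its unit is intensity, a linear signal that the authors made by software and steps not given in the sources used here. With 2% of values at each end left out, the arrays shared a mean of 500.004, and no further scaling was applied. The detection calls used in the paper were not used here. Of 45101 probe sets, 64 controls were left out. In the platform annotation 34945 of the others have 1 gene symbol, 932 several and 9160 none. Of those with 1 symbol, 34741 matched a RefSeq gene number. Signals were compared on the log2 scale, with the paper's thresholds of over 2-fold for lipid A and over 3-fold for genotype. No p-value was computed. The count of genes past a fold was tested on simulated data.

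The members and gene lists were chosen with earlier results of these data known. The genes named are all members with every probe set, up to 5 genes of each pathway list with the largest difference among those detected, H2-Ea and H2-Ob, the markers Ms4a1, Cd79a, Cd79b, Adgre1, Zbtb46, Flt3 and Setdb1, and the 8 genes of nearest profile. Other genes were named after their values were seen. Alternatives were median centring, quantile normalization, no filter or a stricter filter on low signals, low signals raised to the array median, a pseudocount of 100, the median over probe sets, and thresholds of 1.5-fold and 2-fold. Promoter sequences are from RefSeq on GRCm38.p6. The number of arrays limits the precision. Python 3.11.15, numpy 2.4.6, pandas 2.3.3, SciPy 1.17.1 and matplotlib 3.10.9 were used.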

Additional observations from a re-analysis of the deposited data

Results flagged for a closer look

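For 3 of the 7 class II genes the representative probe set went one way with lipid A in WT and the other way in KO, and this difference was not tested, since each condition has 1 array. For Ciita the log2 difference of lipid A over vehicle was -0.48 in WT and 0.21 in KO, so that the KO response minus the WT response was 0.69. The signal of WT lipid A was below its array median, and raised to that median it gave -0.13 in WT. For H2-Aa it was -0.27 in WT and 0.02 in KO, a difference of 0.29. For H2-Eb1 it was 0.06 in WT and -0.05 in KO, a difference of -0.11. These values of H2-Aa and H2-Eb1 were smaller than the SD between probe sets of a gene, and the signals of Ciita lay near the array medians. A further probe set of H2-Aa (1438858_x_at) was at -0.43 in WT and 0.59 in KO, both past that SD, a difference of 1.03. For 1452431_s_at and 1443783_x_at of H2-Aa the difference was 0.20 and 0.52, and the latter was lower with lipid A in both genotypes. The other probe sets of Ciita were below the array median on both WT arrays and give no direction there.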

How the results depend on the processing

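The number of class II genes that lipid A placed over 2-fold above vehicle in WT, 1 as reported, was 0 when both arrays had to be at or above their median, 0 with a pseudocount of 100 and 2 with the median over probe sets, H2-DMa being the second. The number over 3-fold higher in KO under vehicle, also 1, was likewise 0, 0 and 2 under these settings. The number higher in KO under lipid A, 0 as reported, was 1 at 2-fold, which is Ciita, whose bound of 1.58-fold does not pass. The other 90 recomputed medians and counts stayed within the spread between probe sets or the same count, and no called value changed direction. Of the values of single genes, 179 did not move and 11 did, all of H2-DMa, H2-Oa, H2-Ab1 or Ciita. With the median over probe sets, H2-DMa went from 0.86 to 3.11 for KO over WT under vehicle, from 0.70 to 0.05 under lipid A, from 0.31 to 2.71 for lipid A in WT and from 0.15 to -0.35 in KO, and H2-Ab1 from -0.52 to 0.02 and from -0.56 to 0.36 for lipid A in WT and KO. The median of the 7 genes ran from 0.22 to 0.75 for KO over WT under vehicle and from 0.45 to 0.66 under lipid A, from -0.24 to 0.04 for lipid A in WT, and from -0.01 to 0.36 in KO. The difference between the lipid A responses, -0.11, ran from -0.25 to 0.24. No paired analysis was possible because each condition has 1 array and the labels give no replicate numbers, and no array could be left out for the same reason. H2-Oa, Ciita and the second probe set of H2-DMa had signals below the array median, where signal over background limits what a fold can show.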

Other observations

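T cells, NK cells and neutrophils hold little class II in mice. Of the T and NK cell markers 2 of 5 detected were over 3-fold higher in KO under vehicle and 3 of 10 under lipid A. The shares over all detected genes were 6.28% and 6.35%, and 0 markers were lower. All these calls rest on WT signals below the array median, so these markers were detected only through KO. By their bounds Cd3d (2.02-fold), Cd3g (1.36-fold) and Gzma (1.03-fold), those called under lipid A, do not pass 3-fold. Cd3d, a chain of the T cell receptor complex, gave 60.9 with vehicle and 35.4 with lipid A in WT, and 287 and 151 in KO. Of the neutrophil markers 2 of 7 detected were higher and 3 lower in KO under vehicle, beside 6.28% and 3.65% of all detected genes. Of these only S100a8, lower by 3.03-fold, passes by a measured fold, and the others rest on a signal below the median. Under lipid A 0 of 5 passed 3-fold, which does not stand apart from 6.35% higher and 5.73% lower. S100a8, a calcium-binding protein of neutrophils and monocytes, gave 1727 and 1721 in WT and 569 and 676 in KO, vehicle first.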
